A study of Mus musculus with 11 samples.

Results

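T cell receptor (TCR) V genes were taken as the genes of the count table whose symbols begin with Trav, Trbv, Trdv or Trgv and whose raw counts summed to at least 10 over the 11 libraries. The rule found 62 genes, of 170 V genes listed and 52997 genes in all. They were 45 of 128 Trav genes, 11 of 35 Trbv genes, 5 of 6 Trdv genes and the 1 gene listed as Trgv. Of the remaining V genes, 68 had no count in any library and 40 had 1 to 9 counts in all. The last genes inside the minimum were Trbv30 with 13 counts, Trav13-3 with 12, and Trav13n-4, Trav4-3 and Trav9-1 with 10 each. Just outside it were Trav11n and Trbv17 with 9 counts and Trbv14, Trbv5 and Trav7-1 with 8.

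Each V gene encodes most of the variable domain of a TCR chain. In the thymus 1 V gene is joined to a J segment (α and γ chains) or to D and J segments (β and δ chains) and is then transcribed together with a constant gene. A T cell as a rule expresses a single β chain, whereas both copies of the α locus can be rearranged and transcribed in the same cell. The δ locus lies inside the α locus, so that some V genes can serve either chain and carry a double name, such as Trav21-dv12.

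The cells were Treg cells of vTreg53 TCR-transgenic C57BL/6 males, in which a Tcra plus Tcrb transgene built from 1 visceral adipose tissue (VAT) Treg clone was kept heterozygous and combined with a Foxp3-GFP knock-in. They were sorted from pooled spleen and lymph nodes (Spl/LN) and transferred into CD45.1 B6 mice, which were primed 6 weeks later and then boosted. All 11 libraries carry this genotype, an age of 15 weeks and male sex in their labels, and were made by Smart-seq2 from 1000 double-sorted CD45.2+ clonotype+ Treg cells each. The groups were Spl/LN with adjuvant alone (3 libraries), Spl/LN with adjuvant/Fat1562 (3), VAT with adjuvant alone (2) and VAT with adjuvant/Fat1562 (3), where Fat1562 is a peptide that activates the vTreg53 TCR. The labels name the groups without peptide as PBS and unimmunized, whereas the methods of the study describe adjuvant without peptide, and "adjuvant alone" is used here. The transgene lines can also rearrange their own TCR genes, and no label ties a Spl/LN library to a VAT library of the same mouse. P-values therefore measure the spread between these libraries.

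The clonotype was recognized with antibodies to Vα2, encoded by the Trav14 family, and to Vβ4, encoded by Trbv2. A high share of these V genes was thus set in part by the sort and is given as a description, with no test. The sequences that follow are the main V exons in the GENCODE annotation of the mm10 mouse genome (GRCm38), on the plus strand and cropped to the last 300 bases where longer. They are shown because the count of Trav14n-3 rests on telling it from near-identical copies. Trbv2 (chr6:41047701-41047995), Trbv13-1 (chr6:41116175-41116468) and Trav14n-3 (chr14:53370276-53370575) have in capitals the end of the exon from the conserved cysteine codon on, which opens the region that the join completes. Trav14-3 (chr14:53763395-53763694) and Trav14-2 (chr14:53640926-53641225) have in capitals the bases that differ from Trav14n-3 in the alignment.
Trbv2: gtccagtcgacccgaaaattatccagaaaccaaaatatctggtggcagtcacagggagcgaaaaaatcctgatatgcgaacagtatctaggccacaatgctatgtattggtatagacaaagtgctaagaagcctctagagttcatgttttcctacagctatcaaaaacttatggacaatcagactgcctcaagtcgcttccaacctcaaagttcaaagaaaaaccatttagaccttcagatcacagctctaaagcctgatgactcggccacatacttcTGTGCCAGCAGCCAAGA
Trbv13-1: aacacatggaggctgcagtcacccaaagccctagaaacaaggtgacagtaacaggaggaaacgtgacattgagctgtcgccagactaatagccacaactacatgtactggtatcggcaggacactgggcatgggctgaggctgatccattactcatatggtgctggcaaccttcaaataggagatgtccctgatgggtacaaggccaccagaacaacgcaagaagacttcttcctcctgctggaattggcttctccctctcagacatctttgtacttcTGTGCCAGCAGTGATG
Trav14n-3: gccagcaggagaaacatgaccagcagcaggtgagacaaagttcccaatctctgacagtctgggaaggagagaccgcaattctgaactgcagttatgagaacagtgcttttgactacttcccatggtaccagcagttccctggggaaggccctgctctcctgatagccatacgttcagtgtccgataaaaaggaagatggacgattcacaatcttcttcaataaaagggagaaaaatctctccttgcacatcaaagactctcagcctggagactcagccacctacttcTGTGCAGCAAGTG
Trav14-3: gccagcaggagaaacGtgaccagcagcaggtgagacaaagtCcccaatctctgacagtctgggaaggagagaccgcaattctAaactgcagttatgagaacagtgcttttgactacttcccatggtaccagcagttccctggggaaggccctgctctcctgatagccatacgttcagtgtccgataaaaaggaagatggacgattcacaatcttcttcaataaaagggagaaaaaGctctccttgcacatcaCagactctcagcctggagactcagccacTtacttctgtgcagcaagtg
Trav14-2: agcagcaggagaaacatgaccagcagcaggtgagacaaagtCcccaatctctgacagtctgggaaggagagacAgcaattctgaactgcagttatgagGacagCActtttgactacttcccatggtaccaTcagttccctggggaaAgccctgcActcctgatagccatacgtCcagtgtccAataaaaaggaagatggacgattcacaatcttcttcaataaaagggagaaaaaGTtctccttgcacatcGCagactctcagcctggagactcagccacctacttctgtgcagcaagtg

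Over the whole exon, Trav14-3 differed from Trav14n-3 at 6 bases (98.1% identity), Trav14-2 at 14 bases with 3 further gap bases (95.5%) and Trav14d-3-dv8 at 10 bases (96.8%). Of the stretches of 38 bases in the annotated exons of Trav14n-3, which is the length of 1 read, 51.9% also occurred in other genes, all of them Trav14 copies. None of the stretches of Trbv2 or Trbv13-1 was shared. Over all 62 V genes, 27 had more than 50% of their stretches in common with another gene, 16 had none in common, and 3 overlapped exons of another gene. Of the 43 listed V genes with every stretch in common with another gene, 41 had no count in any library, and none was within the rule. How reads that fit several genes were counted was not stated, so single Trav copies are uncertain where their stretches are shared, and a count of 0 for such a copy sets no limit on its RNA.

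Libraries held 4490242 to 6570057 counts. Foxp3, which defines Treg cells, had 6777 to 9995 counts and Cd4 2185 to 4394, whereas of the 2 CD8 chain genes Cd8a had 7 counts in 1 library, 1 in another and 0 in the other 9, and Cd8b1 had 62 to 158 counts. The second VAT library with adjuvant alone stood apart in immunoglobulin V genes, with 8567 counts over the 346 genes listed, next to 412 in the other library of its group and 24 to 1026 in the 9 libraries of the other groups. Of these 346 genes, 176 had no count in any library. Results on V genes that rest on that library are given with and without it.

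V genes took 0.336% to 0.496% of all counts in the 11 libraries, and Trbv2 and Trav14n-3 made up nearly all of them. In Spl/LN with adjuvant alone Trbv2 had 11309, 10988 and 14271 raw counts, and in Spl/LN with adjuvant/Fat1562 it had 14134, 13678 and 19368. The VAT libraries had 10071 and 7753 counts with adjuvant alone and 8915, 11084 and 12207 with adjuvant/Fat1562. Trbv2 took 96% to 98.4% of all Trbv counts, with group means of 97.1% ± 0.759 (SD, n = 3) and 97.2% ± 0.333 (n = 3) in Spl/LN and 96.9% ± 1.34 (n = 2) and 97.9% ± 0.384 (n = 3) in VAT, each time with adjuvant alone first. The groups overlapped. The lowest share was that of the second VAT library with adjuvant alone (exact 95% interval of 95.5 to 96.4), and the highest that of the first VAT library with adjuvant/Fat1562 (98.1 to 98.6). These intervals cover counting error only.

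Trav14n-3, the copy that carried the α clonotype in these counts, had 7370, 6864 and 9664 counts in Spl/LN with adjuvant alone and 8805, 8578 and 11236 in Spl/LN with adjuvant/Fat1562. The VAT libraries had 9140 and 5987 counts with adjuvant alone and 8772, 10183 and 11353 with adjuvant/Fat1562. It held 98.9% to 99.97% of the counts of the Trav14 family. The family as a whole took 92.0% to 97.7% of all Trav counts, with group means of 95.6% ± 1.09 and 96.3% ± 0.382 in Spl/LN (n = 3 each), 94.9% ± 4.09 in VAT with adjuvant alone (n = 2) and 97.1% ± 0.179 in VAT with adjuvant/Fat1562 (n = 3). The second VAT library with adjuvant alone was the lowest, at 92.0% (91.3 to 92.6), while all others lay at 94.8% or above. Scaled to exon length, Trav14n-3 averaged 24575 normalized counts per kilobase (range 19693 to 28703) and Trbv2 21428 (17268 to 27689), and the ranges overlapped. Of the stretches of read length in Trav14n-3, 51.9% occur in other Trav14 copies, whereas Trbv2 shares none. How shared reads were counted was not stated, so these levels do not show which clonotype gene was higher or that both were alike.

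The other Trav14 copies were low. Trav14-2 had 202 counts in all, Trav14-3 176, Trav14d-3-dv8 46 and Trav14-1 21. Trav14-3 was uneven, with 72, 24 and 20 counts in Spl/LN with adjuvant alone, 12, 11 and 13 in Spl/LN with adjuvant/Fat1562, 0 and 2 in VAT with adjuvant alone and 7, 5 and 10 in VAT with adjuvant/Fat1562. Its normalized counts were lower in VAT than in Spl/LN without overlap under either immunization. Trav14-2 ranged from 0 to 47 counts with no such order.

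Differences between groups were tested by edgeR's quasi-likelihood test over 12932 genes, with Benjamini-Hochberg adjustment and a threshold of 0.05. Genes were tested when their mean, scaled to a common library size, was above 10 in at least 1 group, which 28 of the 62 V genes reached. A V gene can pass this filter through the group in which it is high, and the 28 do not stand for all 62. In these bulk libraries, fewer cells that use a V gene and less of its RNA in each cell cannot be told apart. Normalized counts are raw counts scaled to a common effective library size.

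**Figure D1:**
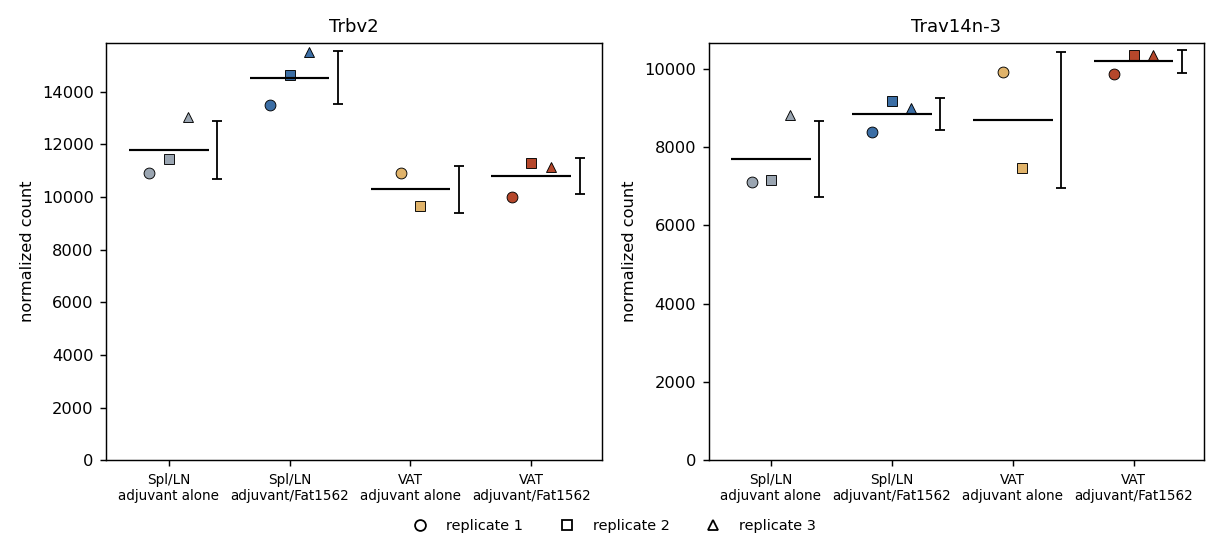
Normalized counts of Trbv2 and Trav14n-3 (y axes, from 0) in the 4 groups (x axis). Each point is a library, its shape the replicate number, horizontal lines are group means and vertical bars 1 SD. All 3 VAT libraries with adjuvant/Fat1562 lie below the Spl/LN libraries with adjuvant/Fat1562 for Trbv2 and above them for Trav14n-3.

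The comparison of VAT with Spl/LN after adjuvant/Fat1562 asked how clonotype+ cells in fat differ from their counterparts in lymphoid organs once both have met the peptide. Trbv2 averaged 10808 ± 688 normalized counts in VAT (SD, n = 3) and 14533 ± 1017 in Spl/LN (n = 3), and the groups did not overlap. The log2 difference was -0.43 (SE 0.08, adjusted p = 0.00147 by edgeR). It kept its side of the threshold in every alternative that was tried. Trav14n-3 averaged 10190 ± 287 in VAT and 8853 ± 405 in Spl/LN, likewise without overlap but in the other direction, with a log2 difference of 0.20 (SE 0.10) that did not pass (adjusted p = 0.193). It passed when only the 2 groups entered the fit (adjusted p = 0.0470).

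Trbv13-2, a β V gene of a family common in the C57BL/6 repertoire, was the other V gene that fell in this comparison. It had 50, 49 and 69 raw counts in Spl/LN and 20, 16 and 22 in VAT, with no overlap. The log2 difference was -1.40 (SE 0.37, adjusted p = 0.0153 by edgeR). The call was lost without the Spl/LN library 3 (adjusted p = 0.0532) or without the second VAT library (0.0725) of these groups. Thus 2 of the 28 V genes were called, both lower in VAT, beside 15.0% of all genes tested that were called and 6.73% that were called lower, and 3 had an unadjusted p under 0.05. The median log2 difference of the 28 was -0.23, and that of all genes -0.01. The summed counts of the 8 B cell markers, of which Ighm had most, likewise did not overlap. They were 12339 to 16807 in Spl/LN and 5884 to 9741 in VAT with adjuvant/Fat1562. Of these markers, 3 were under 10 counts in every library, among them Ms4a1 and Pax5 with at most 6. The part of other cells in these differences was not tested.

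With adjuvant alone, the same tissue comparison asked how clonotype+ cells of VAT differ from those of Spl/LN without peptide. Trbv2 averaged 10295 ± 884 normalized counts in VAT (n = 2) and 11795 ± 1103 in Spl/LN (n = 3), and the groups overlapped (log2 difference -0.20, SE 0.09, adjusted p = 0.168 by edgeR). Trav14n-3 averaged 8689 ± 1727 and 7694 ± 979, also with overlap (0.18, SE 0.11, adjusted p = 0.318), and its sign turned to -0.05 without the first VAT library.

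The V genes called with adjuvant alone were Trav14-3 and Trdv2-2, both lower in VAT, which is 2 of 28 beside 16.3% of all genes called in either direction and 7.18% called lower, and 4 had an unadjusted p under 0.05. Trav14-3 had 2 counts in all in VAT and 116 in Spl/LN. Per library total it was 35.9 times as frequent in Spl/LN (95% counting interval 9.72 to 300.2), with an adjusted p of 0.00247 by edgeR. This interval pools the libraries of a group and leaves out the spread between them. The first Spl/LN library held 72 of the 116 counts, and without it the ratio was 20.3 (5.31 to 173) and the adjusted p 0.0155. Of its stretches 61.7% occur in other genes, and the summed Trav14 family differed by 0.16 in the other direction (adjusted p = 0.355). Trdv2-2, a δ chain V gene, had 89, 162 and 158 counts in Spl/LN and 44 and 51 in VAT. Its log2 difference was -1.26 (SE 0.34, adjusted p = 0.0161), and the call was lost without the second Spl/LN library (adjusted p = 0.0601), without the first VAT library (0.156) or with only the 2 groups in the fit (0.0520). It shares 57.5% of its stretches with other genes and overlaps exons of Gm43647. The median log2 difference was 0.07 over the 28 V genes and -0.03 over all genes.

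The β clonotype gene and the α clonotype gene thus did not move together between tissues. The raw count of Trbv2 over that of Trav14n-3 was 1.53, 1.60 and 1.48 in Spl/LN with adjuvant alone and 1.61, 1.59 and 1.72 in Spl/LN with adjuvant/Fat1562. It was 1.10 and 1.29 in VAT with adjuvant alone and 1.02, 1.09 and 1.08 in VAT with adjuvant/Fat1562. All 5 VAT libraries lay below all 6 Spl/LN libraries. This ratio was chosen after its values were seen and is given with no test. It needs no scaling between libraries, and since it is not per length, its size says nothing of which gene was higher.

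**Figure D2:**
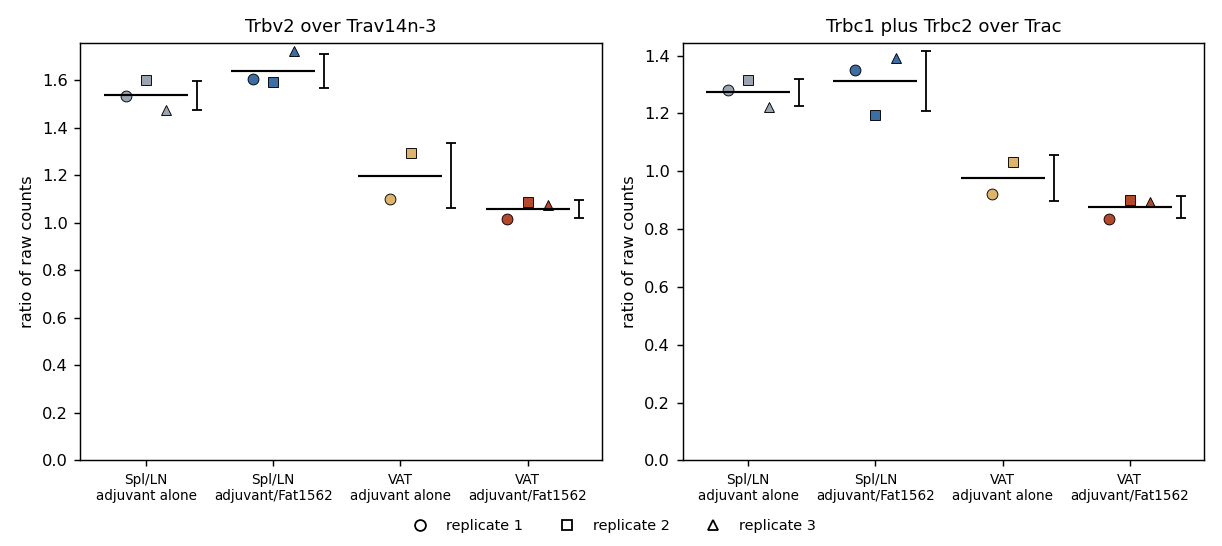
Ratio of raw counts (y axes, from 0) of Trbv2 to Trav14n-3 and of the β constant genes Trbc1 plus Trbc2 to the α constant gene Trac, by group (x axis). Points are libraries, shaped by replicate number, lines are group means and bars 1 SD. In both panels the 5 VAT libraries lie below the 6 Spl/LN libraries.

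The constant genes, to which V genes are spliced, showed the same order. Trbv2 and Trav14n-3 made up nearly all V counts, so this order is no separate support for theirs. The ratio of the constant genes is likewise given with no test. Trbc1 plus Trbc2 over Trac was 1.28, 1.32 and 1.22 in Spl/LN with adjuvant alone, 1.35, 1.19 and 1.39 in Spl/LN with adjuvant/Fat1562, 0.921 and 1.03 in VAT with adjuvant alone and 0.833, 0.900 and 0.895 in VAT with adjuvant/Fat1562. Within each chain the ratio was steadier, with 0.452 to 0.518 Trbv2 counts for each β constant count and 0.371 to 0.428 Trav14n-3 counts for each Trac count over the 11 libraries. In the fit Trbc2 was lower in VAT with adjuvant/Fat1562 (log2 difference -0.46, SE 0.07, adjusted p = 8.03e-05 by edgeR), and Trbc1 was lower in VAT with adjuvant/Fat1562 (-0.59, SE 0.10, adjusted p = 0.000439) and with adjuvant alone (-0.86, SE 0.11, adjusted p = 3.29e-05). Trac did not pass in either (0.11 and 0.14, adjusted p = 0.412 and 0.323).

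Of the 4 CD3 and ζ chain genes, whose products bring the TCR to the surface and signal for it, 2 were lower in VAT with adjuvant/Fat1562 and 1 with adjuvant alone, beside 6.73% and 7.18% of all genes called lower. Cd3g differed by -0.29 (SE 0.08, adjusted p = 0.0137 by edgeR) with adjuvant/Fat1562, and Cd3e by -0.23 (adjusted p = 0.0447) with adjuvant/Fat1562 and by -0.26 (adjusted p = 0.0435) with adjuvant alone. Cd247, the ζ chain, did not pass in either. The genes of V(D)J recombination and of the pre-TCR, Rag1, Rag2, Dntt and Ptcra, had at most 5 counts in any library and none was tested.

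The comparison of adjuvant/Fat1562 with adjuvant alone within a tissue asked what the peptide changed. In Spl/LN, Trbv2 rose from 11795 ± 1103 to 14533 ± 1017 normalized counts (n = 3 each), with no overlap, a log2 difference of 0.30 (SE 0.08) and an adjusted p of 0.0473 by edgeR. The call was close to the threshold. It was lost with median-of-ratios size factors (adjusted p = 0.0533) and without any 1 of these libraries: Spl/LN 1 or 2 with adjuvant alone, Spl/LN 2 or 3 with adjuvant/Fat1562, and VAT 2 or 3 with adjuvant/Fat1562. The highest adjusted p was 0.177. Trav14n-3 differed by 0.20 (SE 0.10, adjusted p = 0.288), and its groups overlapped. Trbc2 rose (0.28, SE 0.07, adjusted p = 0.0227), as did Cd3d (0.41, SE 0.07, adjusted p = 0.00339) and Cd3g (0.48, SE 0.08, adjusted p = 0.00130), beside 2.58% of all genes called higher. Neither Cd3e (0.27, adjusted p = 0.0524 by edgeR) nor Cd247 (-0.01, adjusted p = 0.9645) passed.

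The other V gene called in Spl/LN was Trav6-3, which had 3, 20 and 27 counts with adjuvant alone and 2, 0 and 1 with adjuvant/Fat1562. The first library with adjuvant alone was close to the peptide group. Per library total Trav6-3 was 18.0 times as frequent with adjuvant alone (95% counting interval 5.80 to 90.0, which leaves out the spread between libraries). The adjusted p for Trav6-3 was 0.0447 by edgeR, and of 17 alternatives only 6 kept the call. Of its stretches 87.5% occur in other genes, and the summed Trav6 family differed by 0.71 in the other direction and did not pass. In Spl/LN 2 of 28 V genes were called, 1 in each direction, beside 3.98% of all genes, and 9 had an unadjusted p under 0.05. The median log2 difference was 0.22 over the 28 V genes and 0.00 over all genes.

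In VAT, Trbv2 averaged 10808 ± 688 normalized counts with adjuvant/Fat1562 (n = 3) and 10295 ± 884 with adjuvant alone (n = 2), with overlap (log2 difference 0.07, SE 0.09, adjusted p = 0.728 by edgeR). Trav14n-3 averaged 10190 ± 287 and 8689 ± 1727, also with overlap (0.23, SE 0.11, adjusted p = 0.248). Without the first VAT library with adjuvant alone the difference in Trav14n-3 was 0.45 and passed (adjusted p = 0.0402), and without the second it was 0.04. As in Spl/LN, CD3 genes were called higher with adjuvant/Fat1562, here 3 of the 4 CD3 and ζ chain genes, beside 4.33% of all genes called higher. Cd3d differed by 0.47 (adjusted p = 0.00156 by edgeR), Cd3g by 0.37 (0.0116) and Cd3e by 0.30 (0.0367). Cd247, the ζ chain, differed in the other direction, by -0.25, and did not pass (adjusted p = 0.0951 by edgeR). None of the 4 was called for the interaction of tissue and immunization.

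The V genes called in VAT were Trav7-5, Trav6-3 and Trav7-3, all lower with adjuvant/Fat1562, which is 3 of 28 beside 8.30% of all genes called in either direction and 3.97% called lower, and 4 had an unadjusted p under 0.05. These calls rested on 1 library. Trav7-3 had 0 and 181 counts with adjuvant alone and 2, 0 and 4 with adjuvant/Fat1562. Trav7-5 had 5 and 89 against 0, 0 and 2, and Trav6-3 had 10 and 49 against 2, 2 and 3. In each case the second VAT library with adjuvant alone was the high one, and for Trav7-3 the groups overlapped. By edgeR the adjusted p was 0.00892 for Trav7-5, 0.0210 for Trav6-3 and 0.0256 for Trav7-3. Without the high library they were 0.456, 0.419 and 0.681, and the sign of Trav7-3 turned to 4.12. DESeq2 did not call Trav7-3 (adjusted p = 0.110).

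That library was also the one high in immunoglobulin V genes. Jchain, which joins secreted antibody units, had 58 and 1388 counts in VAT with adjuvant alone and 3 to 29 in VAT with adjuvant/Fat1562, and the 8 B cell markers summed to 6373 and 31310 counts against 5884 to 9741. In Spl/LN with adjuvant alone these markers summed to 17822 to 19420. In Spl/LN with adjuvant alone Jchain had 0, 504 and 67 counts, while Trav7-3 had 4, 72 and 107 and Trav7-5 had 3, 23 and 45. In that group both Trav7 genes had most counts in library 3, and Jchain had most in library 2. Of the 8 B cell markers, 3 were under 10 counts in every library, Ms4a1 and Pax5 among them, and all 3 plasma cell markers reached 10 in at least 1. The part of other cells in these calls was not tested.

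No V gene was called for the interaction of tissue and immunization by edgeR (0 of 28, beside 3.72% of all genes), and 1 had an unadjusted p under 0.05, which was Trav14-3 (adjusted p = 0.0664). DESeq2 also called 0. Of 18 alternatives in all, 15 called 0 and 3 called at least 1. The interaction was -0.23 (SE 0.12, adjusted p = 0.360) for Trbv2 and 0.03 (SE 0.15, adjusted p = 0.958) for Trav14n-3. The tissue difference in Trbv2 that passed with adjuvant/Fat1562 and not with adjuvant alone was therefore not shown to differ between the immunizations.

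**Figure D3:**
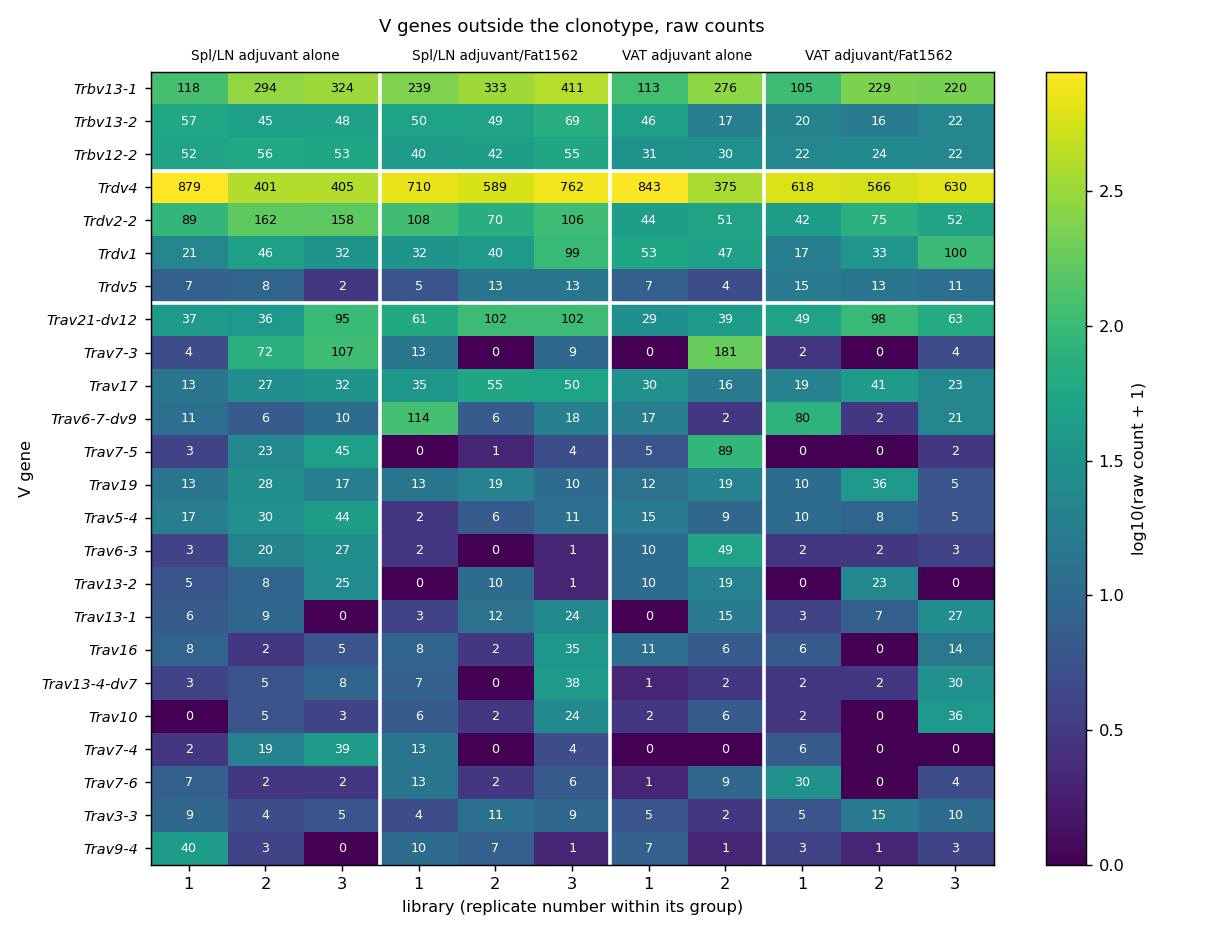
Raw counts (numbers; color, log10 of count + 1) of the V genes outside the clonotype with the largest summed normalized counts, 3 Trbv, 4 Trdv and 17 Trav genes (rows), in the 11 libraries (columns, by group and replicate number). Trbv13-1 and Trdv4 are high in every column, whereas Trav7-3 is high in 3 columns, Trav6-7-dv9 in 2 and Trav9-4 in 1.

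Of the 62 V genes, those of the clonotype included, 36 to 56 had a count in a given library and 16 to 25 had at least 10. Among the β V genes, Trbv13-1 led per kilobase of exon in all 11 libraries. Spl/LN libraries had 118, 294 and 324 counts with adjuvant alone and 239, 333 and 411 with peptide, and VAT libraries had 113 and 276 and then 105, 229 and 220. The library numbered 1 was the lowest of its group in all 4 groups. Trbv13-1 averaged 657 normalized counts per kilobase (range 311 to 972), against 115 for Trbv13-2 and 100.2 for Trbv12-2. It did not pass in any of the 5 tests, with log2 differences between tissues of -0.04 (SE 0.41) with adjuvant alone and -0.72 (SE 0.36) with adjuvant/Fat1562.

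Trbv12-2 had 52, 56 and 53 counts in Spl/LN with adjuvant alone, 40, 42 and 55 in Spl/LN with adjuvant/Fat1562, 31 and 30 in VAT with adjuvant alone and 22, 24 and 22 in VAT with adjuvant/Fat1562. Its tissue difference of -0.88 (SE 0.32) with adjuvant/Fat1562 did not pass (adjusted p = 0.0815 by edgeR). Trbv1 and Trbv31, which lie at either end of the β locus, had 0 to 14 and 0 to 15 counts.

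**Figure D4:**
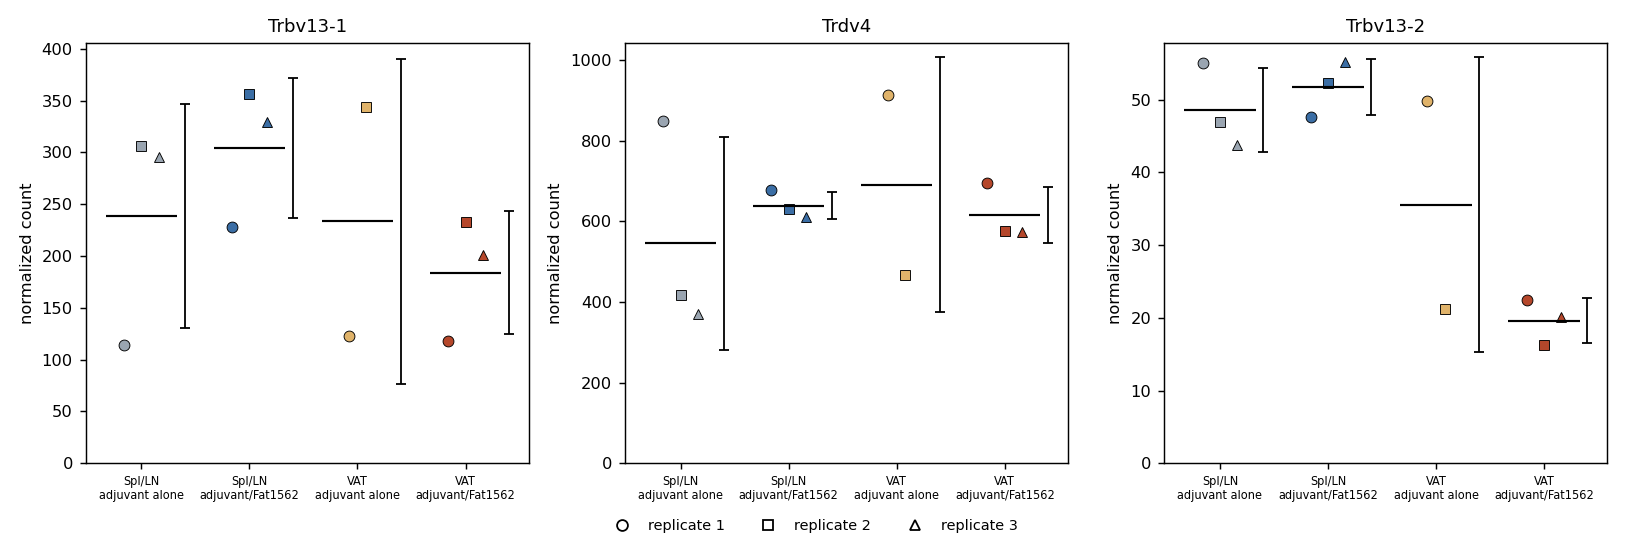
Normalized counts (y axes, from 0) of Trbv13-1, Trdv4 and Trbv13-2 by group (x axis). Points are libraries, shaped by replicate number, lines are group means and bars 1 SD. Circles, the libraries numbered 1, are the lowest of each group for Trbv13-1 and the highest of each group for Trdv4.

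Trdv4, a V gene used in δ chains, led the Trdv genes per kilobase in all 11 libraries. It had 879, 401 and 405 counts in Spl/LN with adjuvant alone, 710, 589 and 762 in Spl/LN with adjuvant/Fat1562, 843 and 375 in VAT with adjuvant alone, and 618, 566 and 630 in VAT with adjuvant/Fat1562. Scaled to a common library size, the library numbered 1 was the highest of its group in all 4 groups, at 848, 677, 914 and 695 normalized counts. Group means were 545 ± 263 and 639 ± 34.4 in Spl/LN (n = 3 each), 691 ± 316 in VAT with adjuvant alone (n = 2) and 615 ± 68.9 in VAT with adjuvant/Fat1562 (n = 3), and Trdv4 did not pass in any test. Per kilobase it averaged 1388 normalized counts, above Trbv13-1 and every other V gene outside the clonotype.

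The other δ V genes were lower. Trdv2-2 averaged 216 normalized counts per kilobase and Trdv1 138. Trdv1 had 99 and 100 counts in the third library of Spl/LN and of VAT with adjuvant/Fat1562, and 17 to 53 in the others. Trdv5, which overlaps Trdc and lies on the other strand, had 2 to 15 counts and cannot be told apart from it where strand was not used in counting.

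The δ constant gene Trdc had 325 to 1122 counts. It was lower in VAT than in Spl/LN with adjuvant alone (log2 difference -0.62, SE 0.19, adjusted p = 0.0368 by edgeR) and rose with adjuvant/Fat1562 in VAT (0.82, SE 0.20, adjusted p = 0.0134), so it did not follow Trdv4. The genes of γ chains, which a γδ T cell also needs, were lower. The 4 γ constant genes summed to 3 to 61 counts in Spl/LN, 11 and 13 in VAT with adjuvant alone and 1 to 4 in VAT with adjuvant/Fat1562. Of these, Tcrg-C2 was called lower in VAT than in Spl/LN with adjuvant/Fat1562 (adjusted p = 0.0232 by edgeR), on 24, 0 and 26 counts in Spl/LN and 0 in all 3 VAT libraries, so the groups overlapped at 0. Trgv2, the single γ V gene within the rule, had 10 and 3 counts in Spl/LN libraries 1 and 3 with adjuvant/Fat1562, 1 in the second VAT library with adjuvant alone and 0 elsewhere. The other γ V genes are named Tcrg-V in the table, fall outside the rule and summed to at most 16 counts in a library.

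Outside the Trav14 family, 40 Trav genes met the minimum, and 23 to 38 of them had a count in a given library. Their summed counts were 211 to 536. Trav21-dv12 had at least 10 counts in all 11 libraries, with 37, 36 and 95 in Spl/LN with adjuvant alone, 61, 102 and 102 in Spl/LN with adjuvant/Fat1562, 29 and 39 in VAT with adjuvant alone and 49, 98 and 63 in VAT with adjuvant/Fat1562. It was the leading other Trav gene per kilobase in 5 libraries, and it did not pass in any test. Trav17 had 13 to 55 counts and also reached 10 in every library. Neither shares a stretch of read length with another gene.

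Most other Trav genes were high in few libraries. Trav6-7-dv9 had 114 counts in the first Spl/LN library and 80 in the first VAT library with adjuvant/Fat1562, and 2 to 21 elsewhere. Trav10, Trav16 and Trav13-4-dv7 had 24, 35 and 38 counts in the third Spl/LN library with adjuvant/Fat1562 and 36, 14 and 30 in the third VAT library with adjuvant/Fat1562, against 0 to 11 in all others. Trav9-4 had 40 counts in the first Spl/LN library with adjuvant alone, 0 to 10 elsewhere, and was the other Trav gene with most counts there. Trav7-3 led in Spl/LN libraries 2 and 3 and in VAT library 2 with adjuvant alone. Trav6-7-dv9, Trav10 and Trav13-4-dv7 were thus high in a Spl/LN and a VAT library of the same immunization and number. Trav16, at 14 counts, was little above other libraries in its VAT library. Trav9-4 had 7 counts in the first VAT library with adjuvant alone, and Trav7-3 was also high in a Spl/LN library whose number no VAT library of that immunization has. Trav19, by contrast, had 5 to 36 counts with no library far from the rest, and Trav5-4, with 17, 30 and 44 counts in Spl/LN with adjuvant alone and 2, 6 and 11 with adjuvant/Fat1562, narrowly did not pass (adjusted p = 0.0551 by edgeR).

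How evenly the other Trav counts were spread differed between libraries of 1 group. The effective number of genes, that is 1 over the sum of squared shares, was 14.0 and 5.90 in the first and second VAT libraries with adjuvant alone. It was 9.75 to 12.9 in Spl/LN with adjuvant alone, 5.91 to 10.8 in Spl/LN with adjuvant/Fat1562 and 6.73 to 11.4 in VAT with adjuvant/Fat1562. All groups overlapped, and each gene here rests on few counts.

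**Figure D5:**
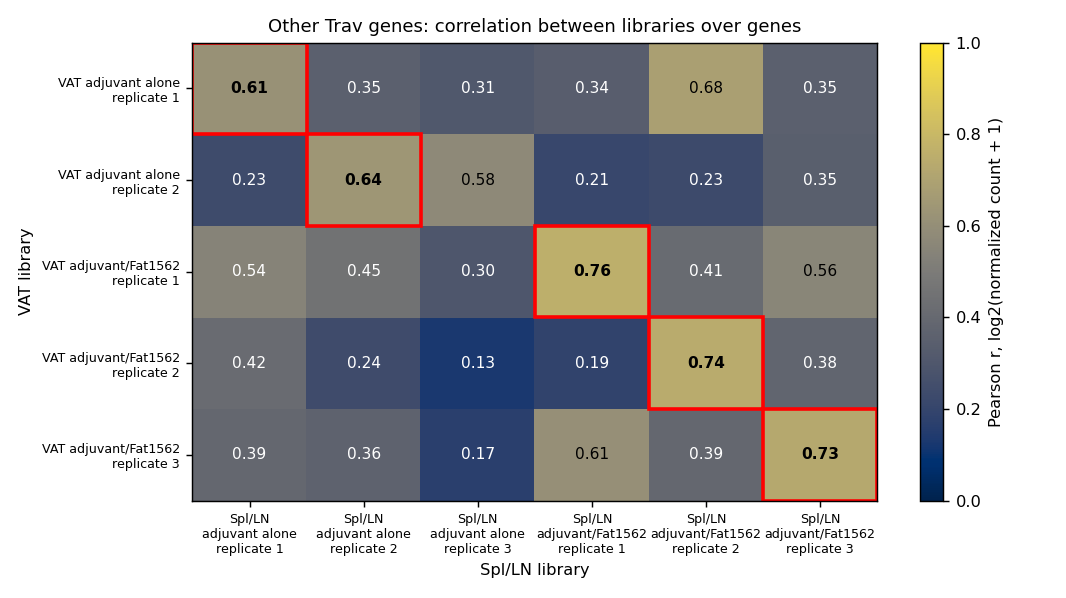
Pearson correlation over the 40 other Trav genes of log2(normalized count + 1) between each VAT library (rows) and each Spl/LN library (columns). Red frames mark the same immunization and replicate number. In 4 of 5 rows the framed value is the highest.

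To describe the likeness of these profiles, each VAT library was set beside each Spl/LN library over the 40 other Trav genes. In 4 of 5 VAT libraries the best match was the Spl/LN library of the same immunization and number, with Pearson's r of 0.639 (second, adjuvant alone) and 0.759, 0.745 and 0.729 (libraries 1 to 3, adjuvant/Fat1562). The first VAT library with adjuvant alone was most like the second Spl/LN library with adjuvant/Fat1562 (0.684), ahead of its own number (0.615). The 40 genes share reads among copies and many are near 0, so the values are a description of these libraries, with no test.

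Trav11 and Trav11d, which encode the α chain of invariant NKT cells, had no count in any library. However, all their stretches of read length also occur in another Trav11 copy, so no limit on this chain can be given. Trav11n, which has 32.4% of its stretches in common with them, had 9 counts in all. Among the J segments, Traj21 had the most counts of the Traj segments in all 11 libraries (153 to 248, or 10.5% to 21.6% of Traj counts). Of 49 J segments tested of 74 listed, 6 were lower in VAT with adjuvant/Fat1562 (beside 6.73% of all genes). With adjuvant alone 4 were lower and 1 higher, beside 7.18% of all genes called lower and 16.3% called in either direction. With adjuvant/Fat1562, 3 were higher in Spl/LN and 1 in VAT, beside 2.58% and 4.33% of all genes. Traj58 was called in both, with log2 differences of 1.99 (SE 0.24, adjusted p = 9.89e-05 by edgeR) and 0.91 (SE 0.27, adjusted p = 0.0449). J segments without a V gene in the same read cannot be assigned to a clone.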

How the data were processed

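Per the labels and the methods of the study, 1000 double-sorted cells per library were made into Smart-seq2 cDNA and sequenced as paired reads of 38 bases. The authors deposited 1 table of raw counts per gene for the 11 libraries. The submitters' processing notes name STAR 2.5.4, featureCounts and mm10, while the methods of the study name Cuffquant for normalized reads. Settings for strand and for reads that fit several genes are not given in the sources used here, which matters most for near-identical Trav copies. Libraries held 4490242 to 6570057 counts, so a gene with few counts has a wide counting error, and PCR copies are not independent molecules.

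The whole table was fitted with edgeR 4.0.16 in R 4.3.3 (TMM scaling, 1 coefficient per group, quasi-likelihood test), over 12932 genes with a scaled mean above 10 in at least 1 group. Benjamini-Hochberg adjustment ran over all of them, at a threshold of 0.05. The common biological coefficient of variation was 19.1%. The steps were tested on simulated counts. Shares have exact (Clopper-Pearson) 95% intervals. Gene positions, exons and shared stretches of 38 bases came from GENCODE (GRCm38), in which all 170 V genes listed were found. Replicates differed by more than sampling noise, so none was merged.

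Named are Trbv2, the Trav14 family, the 5 other V genes with the largest summed normalized count of each kind, the leading other Trav and Trbv gene of each library, V genes called in any test, and fixed lists of constant, CD3, recombination, J and immunoglobulin V genes. A few further Trav genes with 1 or 2 high libraries were named after their values were seen. The members and lists were chosen with earlier results of these data known. Alternatives were DESeq2 1.42.0, median-of-ratios size factors, other filters, only the groups compared, summed V families, the replicate number as a block and leaving out each library.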

Additional observations from a re-analysis of the deposited data

Results flagged for a closer look

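Normalized counts of Trav14-3 were lower with adjuvant/Fat1562 than with adjuvant alone in every Spl/LN library and higher in every VAT library, but neither difference passed (log2 -1.74 and 2.53, adjusted p = 0.139 and 0.1785 by edgeR). In Spl/LN it had 72, 24 and 20 counts with adjuvant alone and 12, 11 and 13 with adjuvant/Fat1562, whereas in VAT it had 0 and 2 counts with adjuvant alone and 7, 5 and 10 with adjuvant/Fat1562. The test of the difference, the interaction in edgeR, gave a log2 value of 4.26 (SE 1.24) that did not pass (adjusted p = 0.0664), and its size depends on the prior count because VAT with adjuvant alone was near 0. Of the stretches of read length in Trav14-3, 61.7% also occur in other genes.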

How the results depend on the processing

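Counts of V genes called changed with the processing, and the cause was not tested. The number of V genes tested changes with the filters, with summed families and with the libraries used. The share called over all genes is not given for the alternatives. The counts below can therefore not be read as shares or set beside those of the main fit as such. Between tissues with adjuvant alone (2 called), 4 were called with no filter on low counts, 1 with a coefficient of variation under 0.7 and 1 with V families summed. In the same comparison with adjuvant/Fat1562 (2), 4 were called with only the groups compared and 1 with families summed. For adjuvant/Fat1562 in VAT (3), 0 were called with the coefficient of variation limit and 0 with families summed. In Spl/LN (2), 1 was called with median-of-ratios size factors, 5 with no filter, 1 with only the groups compared and 1 with families summed. For the interaction (0), 1 was called with no filter. Leaving out each library in turn gave 1 to 4, 1 to 2, 0 to 4, 0 to 3 and 0 to 1 calls in these comparisons, in that order.

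Summed over its family, Trav14-3 turned to 0.16 between tissues with adjuvant alone, and Trav6-3 to 0.71 for adjuvant/Fat1562 in Spl/LN. Leaving out a library moved Trav14n-3 over -0.048 to 0.36 between tissues with adjuvant alone and over -0.16 to 0.25 in the interaction, Trav7-3 in VAT over -6.72 to 4.12 and Trbv2 in VAT over -0.013 to 0.16 for adjuvant/Fat1562. Per kilobase of exon the Trbv2 share was 95.6% and 95.8% in Spl/LN and 95.4% and 96.9% in VAT. Leaving out a library gave Trav14 family shares of 92.0% or 97.7% in VAT with adjuvant alone, which has 2 libraries.

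The labels give same-numbered Spl/LN and VAT libraries a number in common and do not say what it marks. Their deviations from group means correlated at 0.030 to 0.055 over 12932 genes, though each VAT library correlated best with its own number. Deviations cancel out within a group, so these matches are not independent. The 2 VAT libraries with adjuvant alone mirror each other exactly. With the replicate block, 2 and 3 V genes were called between tissues, 3 and 2 for adjuvant/Fat1562 in VAT and in Spl/LN and 0 for the interaction, where Trav14n-3 was -0.017, and Trav6-3 lost its call in Spl/LN (adjusted p = 0.0675 by edgeR). A replicate block within immunization, added after seeing the data, called 2 for the interaction. Neither Trbv2 nor Trav14n-3 was among them, and Trav14n-3 was at -0.068. Depth limits the Trav genes other than Trav14n-3, of which only Trav21-dv12 and Trav17 had at least 10 counts in every library.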
